A study of Mus musculus with 8 samples.

Results

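The genes described here encode 10 subunits of condensin and cohesin, the ring-shaped protein complexes that fold and hold together chromosomes. Members were the probes whose gene name on the array was Smc2, Smc4, Ncapd2, Ncapg or Ncaph (condensin) or Smc1a, Smc3, Rad21, Stag1 or Stag2 (cohesin). This gave 10 genes with 11 probes, of 16153 genes tested on arrays with 39429 probes. All 11 member probes passed the filter on dim probes, and Stag1 was the gene with 2 of them.

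The cells belonged to the mouse pre-B line C10, a HAFTL derivative in which C/EBPα, a myeloid transcription factor, can be switched on, and which then turns towards macrophage-like cells. The 4 groups were cells with a short hairpin RNA (shRNA) against Tet2 after 24 h of induction, the same cells uninduced (0 h), cells with a control shRNA after 24 h of induction, and these control cells at 0 h. Induction combined 100 nM estradiol with IL-3 and M-CSF, each at 10 ng/ml, so the hormone and the cytokines were not separated in any group, and all groups carry the inducible C/EBPα. Each group held 2 arrays that the design calls technical duplicates of one line, so p-values cover the spread of duplicate arrays alone, and culture-to-culture spread was not measured. The arrays were 1-colour Agilent arrays, and a level is given below as a multiple of the array's 75th percentile of signal, which is not comparable between probes. In RNA from whole cultures, a smaller share of cells that express a gene and less of its RNA per cell cannot be told apart.

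The 75th percentile of signal was 722 to 1435 intensity units over the 8 arrays, and duplicates correlated across genes with r of 0.992 to 0.994. Tet2, the target of the hairpin, did not pass the test as lower in the line labelled knockdown. Its log2 difference from control was -0.11 ± 0.10 (SE, adjusted p = 0.533) at 0 h and 0.01 ± 0.10 (adjusted p = 0.982) at 24 h, so knockdown cells below are the cells so labelled. Of the 9 pre-B markers, all were well above background on every array, with summed levels of 357 to 377 in knockdown cells at 24 h, 441 to 511 in knockdown cells at 0 h, 260 to 287 in control cells at 24 h and 470 to 507 in control cells at 0 h. The 8 macrophage markers summed to 957 to 1042 in knockdown cells at 24 h, 5.60 to 6.01 in knockdown cells at 0 h, 965 to 1023 in control cells at 24 h and 6.05 to 6.47 in control cells at 0 h. Bright genes weigh most in these sums. At an adjusted p under 0.05 and at least 2-fold, 4 of 9 pre-B markers were lower on induction in the knockdown line and 5 in the control line. Of 7 macrophage markers tested, 6 were higher in each line, and Itgam was not (log2 0.20 and 0.36). Adgre1 did not pass the filter on dim probes.

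Condensin and cohesin are both built on a pair of SMC proteins, long coiled-coil ATPases joined at one end by a hinge and closed at the other by a kleisin subunit, to which HEAT-repeat subunits bind. Condensin compacts chromosomes in mitosis by extruding loops of DNA, and its genes are typical of dividing cells. Cohesin holds sister chromatids together from S phase until anaphase, and in interphase it extrudes the loops that CTCF sites bound, so cells need it whether or not they divide. SMC2 and SMC4 are the SMC pair of both condensin complexes, with the HEAT subunits NCAP-D2 and NCAP-G and the kleisin NCAP-H in condensin I. SMC1A and SMC3 are the SMC pair of somatic cohesin, with the kleisin RAD21 and either STAG1 or STAG2 as HEAT subunit.

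Promoters of proliferation genes often hold CHR elements and CCAAT boxes, bound in cell cycle regulation by the DREAM complex and by NF-Y, and E2F sites. The RefSeq table of promoters (build GRCm38.p6) held 7 of the 10 members, from 250 bases before to 50 after an annotated start, and Smc4, Rad21 and Stag2 have no entry used here. Shown are the 250 bases upstream of the start for an SMC gene and the kleisin gene of condensin, which fell most on induction, and for the SMC pair of cohesin, which fell less. Capitals mark CHR elements (searched as TTTGAA and TTCGAA) and CCAAT boxes (CCAAT), and E2F sites were searched as TTTCCCGC, TTTGGCGC, TTTCGCGC and TTTGCCGC, all on both strands. No matched stretches overlapped. The Smc2 window is chr4:52438971-52439220 on the plus strand, that of Ncaph chr2:127133955-127134204 on the minus strand, that of Smc1a chrX:152016178-152016427 on the plus strand and that of Smc3 chr19:53600146-53600395 on the plus strand.
Smc2: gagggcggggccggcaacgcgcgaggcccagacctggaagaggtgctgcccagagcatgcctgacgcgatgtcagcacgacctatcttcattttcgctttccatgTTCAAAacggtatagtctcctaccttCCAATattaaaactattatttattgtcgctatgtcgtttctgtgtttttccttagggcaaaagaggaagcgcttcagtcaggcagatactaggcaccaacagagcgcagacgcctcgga
Ncaph: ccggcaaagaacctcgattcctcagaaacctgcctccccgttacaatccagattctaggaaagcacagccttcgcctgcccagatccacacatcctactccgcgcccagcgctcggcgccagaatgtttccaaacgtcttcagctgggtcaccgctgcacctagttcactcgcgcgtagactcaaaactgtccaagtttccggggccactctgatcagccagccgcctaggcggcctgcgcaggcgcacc
Smc1a: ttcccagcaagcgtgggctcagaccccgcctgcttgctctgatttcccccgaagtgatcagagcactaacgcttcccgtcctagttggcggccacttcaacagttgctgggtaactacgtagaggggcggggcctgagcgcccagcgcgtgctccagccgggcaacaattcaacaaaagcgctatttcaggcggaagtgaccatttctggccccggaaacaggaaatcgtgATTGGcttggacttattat
Smc3: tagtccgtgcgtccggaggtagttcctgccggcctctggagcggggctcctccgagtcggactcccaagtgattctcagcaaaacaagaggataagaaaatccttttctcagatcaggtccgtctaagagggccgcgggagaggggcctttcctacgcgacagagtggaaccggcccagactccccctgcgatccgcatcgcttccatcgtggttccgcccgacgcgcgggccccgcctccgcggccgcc

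In the 300-base window a CHR element was present in 3 of 7 members (Smc2, Ncapd2 and Ncapg), against 19.2% of 32851 promoters in the table. A CCAAT box was present in 5 of 7 (Smc2, Ncapd2, Ncapg, Smc1a and Stag1), against 37.4% of all. An E2F site was present in 4 of 7 (Ncapd2, Ncapg, Smc1a and Stag1), against 2.26% of all. In Smc2 a CHR element lay at positions -145 to -140 from the start and a CCAAT box at -119 to -115. In Smc1a a CCAAT box lay at -19 to -15 and the E2F site downstream of the start, at 37 to 44. In Ncapd2 the CHR element lay at -123 to -118, between the CCAAT boxes at -148 to -144 and -48 to -44, and in Ncapg it lay at -30 to -25. The Ncaph and Smc3 windows held none of the 3 motifs as spelled here. A match is a run of letters and not a measured binding site. Printed are the members whose upstream window lies outside the annotated gene, which leaves out Ncapd2, Ncapg and Stag1.

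The array reads each gene at one short stretch, given here on mouse build mm9. Among condensin genes the probe lay at chr4:52501012-52501071 for Smc2, chr3:68838437-68838496 for Smc4, chr6:125118012-125118066 for Ncapd2, chr5:46091679-46091738 for Ncapg and chr2:126929625-126929684 for Ncaph. Among cohesin genes it lay at chrX:148496427-148496486 for Smc1a, chr19:53719568-53719627 for Smc3, chr15:51794326-51794385 for Rad21, chr9:100858787-100858846 for Stag1 and chrX:39630266-39630325 for Stag2. Which exon or UTR a probe reads was not assigned, and isoforms outside these stretches are not measured.

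All 10 subunit genes fell on induction in both lines, condensin genes by 5.01-fold to 21.5-fold in the knockdown line and cohesin genes by 1.54-fold to 4.43-fold. In the knockdown line 8 members were lower at an adjusted p under 0.05 and at least 2-fold, where 15.4% of all 16153 genes were, and none was higher, where 16.7% of genes were. In the control line 8 members were lower, where 13.1% of all genes were, and none was higher, where 14.2% were. Both counts of 8 include Ncapg, which entered the test only through its 0 h arrays, the time at which it was high. Keeping only probes well above background on all arrays removed Ncapg and left 7 of 9 members lower by this rule in each line. With no fold rule all 10 members were lower in each line, where 32% of genes were lower in the knockdown line and 31.1% in the control line. The median log2 change of the 5 condensin genes was -3.93 in the knockdown line and -3.76 in the control line (-3.55 with Ncapg at its bound), and that of the 5 cohesin genes was -1.55 and -1.41. Over all genes tested the median was 0.14 in the knockdown line and 0.00 in the control line. On the arrays themselves all 10 members were lower at 24 h without overlap in each line, where 38.3% of all genes were in the knockdown line and 39.6% in the control line. The inductions have no sample in common, but the arrays share slides and one estimate of the spread.

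**Figure D1:**
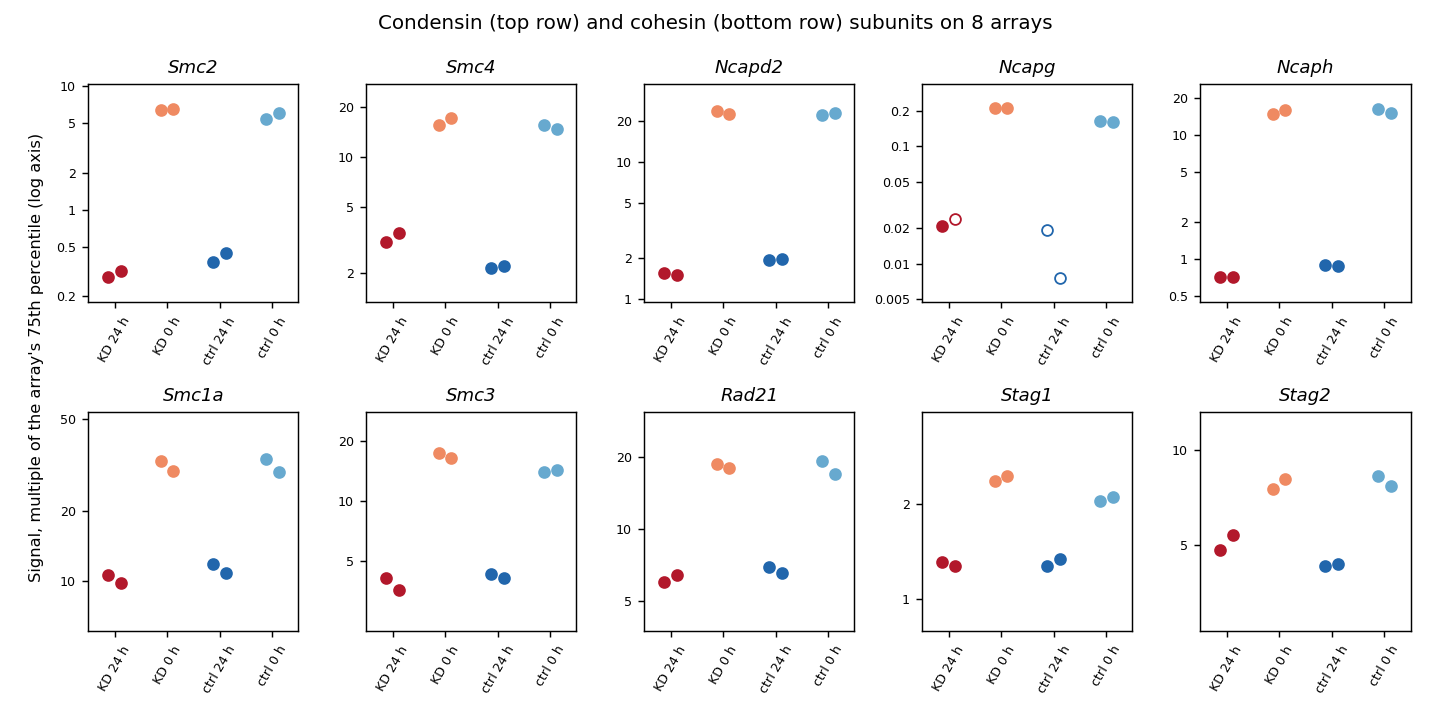
Signal of each subunit gene on the 8 arrays, as a multiple of the array's 75th percentile on a log axis, in knockdown cells (KD) at 24 h and 0 h and control cells (ctrl) at 24 h and 0 h, with a point per array and open points for arrays on which the probe was not well above background. Every 24 h point lies below every 0 h point of the same gene, and the gap is wider in the top row (condensin) than in the bottom row (cohesin).

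Smc2, the SMC subunit shared by both condensins, had levels of 0.285 and 0.321 in knockdown cells at 24 h, against 6.46 and 6.56 in the same cells at 0 h. In control cells it had 0.381 and 0.446 at 24 h, against 5.44 and 6.05 at 0 h. The groups did not overlap in either line, and the duplicates of a group lay close together. Smc2 fell 21.5-fold in the knockdown line (log2 -4.43 ± 0.11, adjusted p = 1.97e-06) and 13.9-fold in the control line (-3.80 ± 0.11, adjusted p = 3.67e-06). Its remaining level was 4.65% of the 0 h level in knockdown cells and 7.19% in control cells.

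Smc4, the partner of SMC2 in the ring, fell less than Smc2 in both lines. It had levels of 3.08 and 3.47 in knockdown cells at 24 h, against 15.6 and 17.2 at 0 h, and 2.14 and 2.21 in control cells at 24 h, against 15.5 and 14.7 at 0 h. The fall was 5.01-fold in the knockdown line (-2.32 ± 0.09, adjusted p = 7.34e-06) and 6.94-fold in the control line (-2.80 ± 0.09, adjusted p = 4.76e-06). The log2 change of Smc2 minus that of Smc4 was -2.10 in the knockdown line (-2.16 on one slide and -2.05 on the other) and -1.003 in the control line (-0.98 and -1.02). These gaps are given as a description, without a test between genes.

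Ncapd2, a HEAT subunit of condensin I, had levels of 1.55 and 1.50 in knockdown cells at 24 h, against 23.6 and 22.7 at 0 h. Control cells had 1.91 and 1.94 at 24 h, against 22.4 and 22.9 at 0 h. The 0 h arrays of both lines lay within a narrow band, and the 24 h arrays were lower by more than 10-fold. Ncapd2 fell 15.2-fold in the knockdown line (-3.93 ± 0.06, adjusted p = 6.31e-07) and 11.7-fold in the control line (-3.55 ± 0.06, adjusted p = 9.62e-07).

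Ncaph, the kleisin of condensin I, had levels of 0.723 and 0.716 in knockdown cells at 24 h, against 14.8 and 15.9 at 0 h. In control cells it had 0.896 and 0.875 at 24 h, against 16.2 and 15.1 at 0 h. It was the member with the lowest change in the control line and stood beside Smc2 in the knockdown line. The fall was 21.3-fold in the knockdown line (-4.41 ± 0.07, adjusted p = 6.73e-07) and 17.7-fold in the control line (-4.14 ± 0.07, adjusted p = 1.01e-06). Among the log2 changes of all genes Ncaph stood at percentile 0.848 in the knockdown line and 0.891 in the control line.

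Ncapg, the other HEAT subunit of condensin I, had the dimmest probe, which reached the mark for a signal well above background on 5 arrays. It had levels of 0.0210 and 0.0239 in knockdown cells at 24 h, where 1 of 2 arrays was above background, against 0.211 and 0.214 at 0 h. In control cells it had 0.0193 and 0.00748 at 24 h, where neither array was above background, against 0.164 and 0.161 at 0 h. The 24 h arrays were the low ones in each line, and only at 0 h were both duplicates of a line measured above background. Ncapg thus entered the test only through its 0 h arrays, the time at which it was high. Ncapg fell 9.51-fold in the knockdown line (-3.25 ± 0.42, adjusted p = 0.000944). With the scanner's background subtraction it was at least 4.16-fold lower in control cells at 24 h than at 0 h. This bound sets the dim arrays at the lowest signal found well above background there. The limma fit of the signals as read, dim arrays included, gave an adjusted p of 0.000564, and the bound itself was not tested. With a normexp background correction the log2 change of Ncapg was -1.38 in the knockdown line and -1.63 in the control line, both still past the test. These falls are smaller, and the bound does not apply to them.

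**Figure D2:**
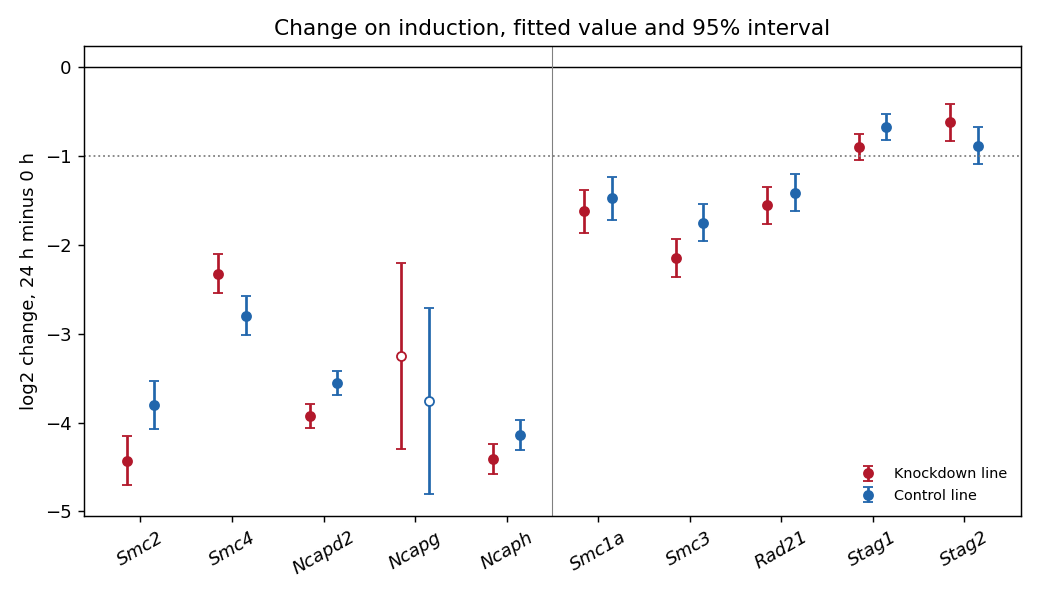
Fitted log2 change on induction (24 h minus 0 h) of each subunit gene with its 95% interval, in the knockdown line (red, left of each pair) and the control line (blue), with a dotted line at a 2-fold fall and open points for Ncapg, which was dim at 24 h. The condensin genes on the left lie between -2.32 and -4.43 and the cohesin genes on the right between -0.62 and -2.15.

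Smc1a, an SMC subunit of cohesin, had levels of 10.6 and 9.79 in knockdown cells at 24 h, against 32.9 and 30.003 at 0 h. Control cells had 11.8 and 10.9 at 24 h, against 33.6 and 29.6 at 0 h. The 24 h arrays were the low ones in both lines, and the groups did not overlap. Smc1a fell 3.08-fold in the knockdown line (-1.62 ± 0.10, adjusted p = 3.94e-05) and 2.78-fold in the control line (-1.48 ± 0.10, adjusted p = 6.64e-05).

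Smc3, its partner and the subunit whose acetylation locks cohesin on sister chromatids, had levels of 4.09 and 3.57 in knockdown cells at 24 h, against 17.5 and 16.4 at 0 h. In control cells it had 4.31 and 4.10 at 24 h, against 13.9 and 14.3 at 0 h. It had the lowest log2 change among the 5 cohesin genes in both lines. Smc3 fell 4.43-fold in the knockdown line (-2.15 ± 0.09, adjusted p = 8.85e-06) and 3.36-fold in the control line (-1.75 ± 0.09, adjusted p = 2.10e-05). The log2 change of Smc1a minus that of Smc3 was 0.52 in the knockdown line and 0.27 in the control line.

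Rad21, the kleisin that separase cleaves at anaphase, had levels of 6.04 and 6.43 in knockdown cells at 24 h, against 18.7 and 17.9 at 0 h. Control cells had 6.97 and 6.59 at 24 h, against 19.2 and 16.9 at 0 h. The duplicates of each group lay far closer to each other than to the other time. Rad21 fell 2.94-fold in the knockdown line (-1.55 ± 0.08, adjusted p = 2.69e-05) and 2.66-fold in the control line (-1.41 ± 0.08, adjusted p = 4.50e-05).

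Stag1 and Stag2 encode the alternative HEAT subunits of cohesin, and they had the smallest changes of the members. Stag1 had levels of 1.31 and 1.27 in knockdown cells at 24 h, against 2.37 and 2.45 at 0 h, and 1.27 and 1.34 in control cells at 24 h, against 2.05 and 2.11 at 0 h. It fell 1.86-fold in the knockdown line (-0.90 ± 0.06, adjusted p = 5.73e-05) and 1.59-fold in the control line (-0.67 ± 0.06, adjusted p = 0.00022). Both falls passed the test and stayed under the 2-fold rule. A second Stag1 probe, A_52_P491861 at chr9:100857689-100857748 on mm9, gave a 2.16-fold lower level in the knockdown line and a 1.63-fold lower level in the control line. With the mean of both probes Stag1 passed the 2-fold rule in the knockdown line (-1.01), and with median scaling of the arrays it did so too (-1.15).

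Stag2 had levels of 4.80 and 5.38 in knockdown cells at 24 h, against 7.53 and 8.12 at 0 h, and 4.28 and 4.36 in control cells at 24 h, against 8.25 and 7.67 at 0 h. The times did not overlap in either line. Stag2 fell 1.54-fold in the knockdown line (-0.62 ± 0.08, adjusted p = 0.00113) and 1.84-fold in the control line (-0.88 ± 0.08, adjusted p = 0.000289). Its log2 change minus that of Stag1 was 0.28 in the knockdown line and -0.21 in the control line, without a test of the gap.

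**Figure D3:**
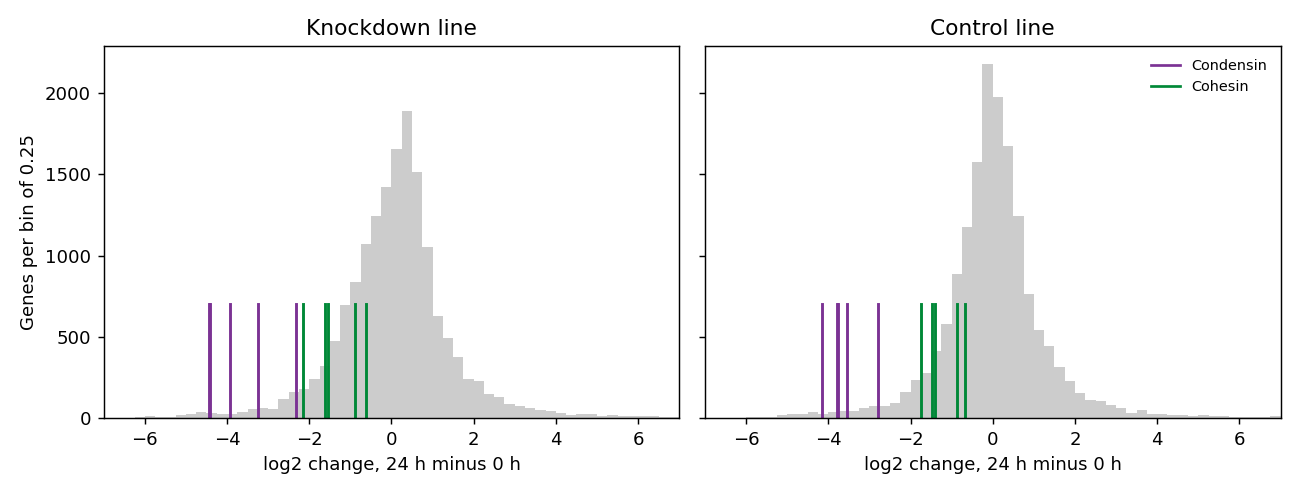
Distribution of the log2 change on induction over all 16153 genes tested, in the knockdown line and the control line, with the 10 subunit genes marked. The condensin genes lie in the low tail, while Stag1 and Stag2 lie nearer the bulk of genes, around the medians of 0.14 and 0.00.

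Before induction, the question was whether the lines already differed in these genes. No member passed the test between knockdown and control cells at 0 h, where 13.5% of all genes did at an adjusted p under 0.05 and 1.73% did at 2-fold or more as well. The unadjusted p was under 0.05 for 2 members, Smc3 and Stag1, and for 4951 genes in all. Smc3 differed by 0.26 ± 0.09 on the log2 scale (adjusted p = 0.104) and Stag1 by 0.21 ± 0.06 (adjusted p = 0.0744). With the slide as a block Stag1 passed the test (adjusted p = 0.0459), and no other member did. The 95% intervals of the remaining members lay within -0.25 and 0.46, apart from Ncapg (-0.66 to 1.44).

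At 24 h the lines differed in 3 condensin genes at an adjusted p under 0.05, each by less than 2-fold. Smc4 was higher in knockdown cells, with 3.08 and 3.47 against 2.14 and 2.21 in control cells (log2 0.59 ± 0.09, 1.50-fold, adjusted p = 0.0142). Ncapd2 was lower, with 1.55 and 1.50 in knockdown cells against 1.91 and 1.94 in control cells (-0.34 ± 0.06, adjusted p = 0.0190), and Ncaph was lower too (-0.30 ± 0.07, adjusted p = 0.0426). The groups did not overlap for any of the 3, as for 9 of 10 members and 59.7% of all genes with 2 arrays a side, and both slides gave the same direction. Among all genes 7.39% were higher and 6.45% lower by this rule. The members' counts, 1 of 10 higher and 2 of 10 lower, are too small to set apart from these shares. At 2-fold or more no member differed, where 2.04% of genes did. The unadjusted p at 24 h was under 0.05 for 5 members and for 5055 genes in all.

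Smc2 missed the test at 24 h (-0.45 ± 0.11, adjusted p = 0.0527) and passed it with the slide as a block (adjusted p = 0.0158). Ncapg was above background on 1 knockdown array and on no control array at 24 h, so no fold is given (fitted difference 0.90 ± 0.42, adjusted p = 0.216). The slides gave 0.12 and 1.68 for this difference, and it was 1.58 without the first control array at 24 h (adjusted p = 0.0137) and 0.21 without the second. Both of these control arrays were below background, so no difference is read from these values. None of the 5 cohesin genes passed, with differences from -0.15 to 0.23 and adjusted p from 0.126 to 0.887. Their 95% intervals ran from -0.40 at the lowest to 0.44 at the highest, so differences up to that size are within the error of these arrays.

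The fall on induction was also compared between the lines, as the change in knockdown cells minus that in control cells. It differed at an adjusted p under 0.05 for Smc2 and Ncapd2, which fell further in knockdown cells, by 0.63 ± 0.15 (adjusted p = 0.0483) and by 0.37 ± 0.08 (adjusted p = 0.0341) on the log2 scale. Both slides gave this direction, with -0.67 and -0.59 for Smc2 and -0.38 and -0.36 for Ncapd2. Among all genes 7.05% were lower by this rule and 16.3% differed in either direction. The members' count of 2 of 10 is too small to set apart from these shares. No member differed at 2-fold or more, where 3.82% of genes did.

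Smc4 and Smc3 missed the test for the difference of induction and passed it with the slide as a block. Smc4 gave 0.47 ± 0.12 (adjusted p = 0.0567, and 0.0353 with the block), the direction opposite to that of Smc2. Smc3 gave -0.40 ± 0.12 (adjusted p = 0.0798, and 0.0427 with the block). The other members had adjusted p from 0.114 (Ncaph, -0.27 ± 0.10) to 0.612 (Ncapg, 0.51 ± 0.59). The 95% intervals of Ncaph (-0.51 to -0.03) and Stag1 (-0.44 to -0.02) lay below 0. Those of Smc1a and Rad21 spanned -0.49 to 0.20 and -0.44 to 0.16. In this comparison the unadjusted p was under 0.05 for 6 members and for 5385 genes in all. For Ncapg, below background on both control arrays at 24 h, the slides gave -0.24 and 1.26. Its difference of induction was 1.19 without the first of these arrays (adjusted p = 0.0330) and -0.18 without the second.

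The tests between the lines depended on the arrays and on the scaling. In the difference of induction, leaving out any 1 of the 8 arrays, after which the lone array of a group is assumed to vary like the others, took Smc2 (adjusted p from 0.0667 to 0.131) and Ncapd2 (0.0688 to 0.112) past 0.05. At 24 h, Smc4 went past 0.05 without either control array at 24 h (0.0864 and 0.0734) or without the second knockdown array at 24 h (0.0702). Ncapd2 did so without any 1 of the 4 arrays at 24 h (0.0754 to 0.106), and Ncaph without any 1 of the 8 (0.0569 to 0.177). With each array scaled on its median, the adjusted p was 0.261 for Smc2 and 0.540 for Ncapd2 in the difference of induction, and 0.332 for Smc4, 0.551 for Ncapd2 and 0.628 for Ncaph at 24 h. With no filter on dim probes, which tests more genes, all 5 also missed the test (adjusted p from 0.115 to 0.307). With normexp background or with the deposited table, the Smc2 and Ncapd2 differences of induction and Ncaph at 24 h missed it (0.0545 to 0.128). None of these settings changed the direction of the 5 values.

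**Figure D4:**
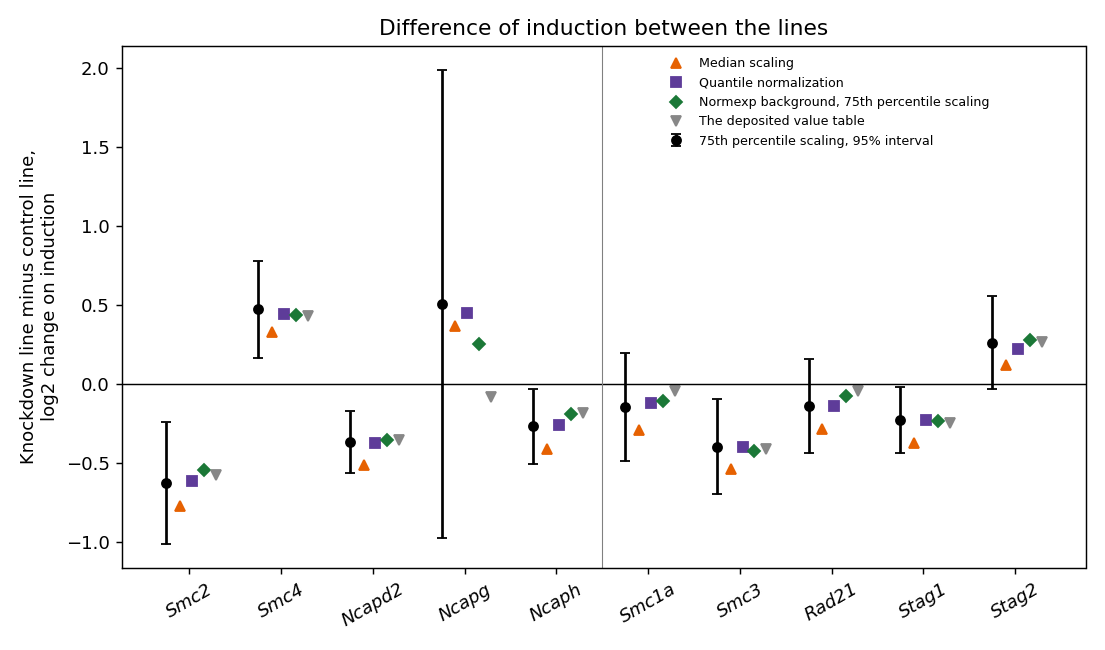
Difference of the log2 change on induction between the lines (knockdown line minus control line) of each subunit gene, with its 95% interval. Further markers give the same difference with median scaling, quantile normalization, normexp background and the deposited table. Smc4 lies above 0 (0.47), and Smc2 and Ncapd2 lie below it (-0.63 and -0.37). The interval of Ncapg, whose probe was dim, is the widest.

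Of 36 other genes of condensin and cohesin biology, 32 were tested, and 22 were lower and 1 higher by at least 2-fold in the knockdown line, against the 15.4% and 16.7% of all genes. In the control line 21 were lower and none higher, where 13.1% and 14.2% of genes were. The median log2 change of the 32 genes was -1.64 in the knockdown line and -1.47 in the control line. Of the genes lower by this rule, 1 in the knockdown line and 3 in the control line had no 24 h array well above background. Esco2, Dscc1, Kif4 and Sgol2 entered the test only through their 0 h arrays, the time at which they were high. Smc1b, Rad21l, Stag3 (germline cohesin subunits) and Aurkb were not tested because no probe of theirs passed the filter on dim probes. None of the 32 genes passed the test with at least a 2-fold difference between the lines at either time. Of all genes, 1.73% did at 0 h and 2.04% at 24 h. Sgol2, dim at 24 h, gave 2.02 ± 1.04 on the log2 scale at that time (adjusted p = 0.252). With no fold rule Pds5a (0.33 ± 0.06, adjusted p = 0.0248) and Smc6 (0.29 ± 0.06, adjusted p = 0.0424) were higher in knockdown cells at 0 h. Pttg1 was higher at 24 h (0.34 ± 0.06, adjusted p = 0.0226). By that rule 13.5% of all genes differed at 0 h, and 7.39% were higher at 24 h. Ncapg2 (-0.78 ± 0.19, adjusted p = 0.0455), Plk1 (-0.39 ± 0.08, adjusted p = 0.0300) and Pds5b (-0.43 ± 0.10, adjusted p = 0.0472) were lower by it in the difference of induction. Pttg1 was higher in that difference (0.35 ± 0.08, adjusted p = 0.0468), where 16.3% of all genes differed in either direction.

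The condensin II subunit genes Ncapd3, Ncapg2 and Ncaph2, whose complex also uses SMC2 and SMC4, all fell in both lines. Ncapg2 changed by -3.97 ± 0.13 in the knockdown line and -3.19 ± 0.13 in the control line, and Ncaph2 by -1.36 ± 0.09 and -1.02 ± 0.09. Rec8, the meiotic kleisin, was the gene that was higher in the knockdown line (1.07 ± 0.27, adjusted p = 0.0162), and it gave 0.48 ± 0.27 in the control line (adjusted p = 0.189). Neither cohesin loader gene passed the 2-fold rule. Nipbl was lower by the test in the knockdown line (-0.61 ± 0.20, adjusted p = 0.0400) and gave -0.01 ± 0.20 in the control line, and Mau2 was higher in the knockdown line (0.31 ± 0.08, adjusted p = 0.0183) and gave -0.16 ± 0.08 in the control line. Pds5a and Pds5b, regulators of cohesin residence on DNA, fell in both lines, and the release factor gene Wapal did not pass the rule (-0.13 ± 0.09 and 0.31 ± 0.09).

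Of 8 genes for setting up cohesion, 5 fell by at least 2-fold in each line, and Hdac8, the SMC3 deacetylase gene, fell by less (-0.36 ± 0.11, adjusted p = 0.0343, and -0.34 ± 0.11, adjusted p = 0.0457). The acetyltransferase genes moved in opposite directions. Esco2, which acetylates SMC3 in S phase, was at least 21.6-fold lower in the knockdown line and at least 12.9-fold lower in the control line. Esco1, which acetylates SMC3 outside S phase as well, gave 0.63 ± 0.08 and 0.69 ± 0.08, higher by the test in both lines and under 2-fold. Dscc1 and Chtf18, parts of the clamp loader that aids cohesion at forks, changed by -6.12 ± 0.30 and -5.25 ± 0.08 in the knockdown line and by -4.95 ± 0.30 and -4.78 ± 0.08 in the control line. Dscc1 was above background on 1 of the 2 arrays at 24 h in each line.

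All 4 genes of cohesin cleavage and protection fell in both lines. Espl1, which encodes separase, changed by -4.29 ± 0.14 in the knockdown line and -4.13 ± 0.14 in the control line. Sgol1, a shugoshin that protects centromeric cohesin, changed by -5.27 ± 0.09 and -4.96 ± 0.09. Sgol2, the other shugoshin, changed by -3.45 ± 1.04 in the knockdown line, where 1 of 2 arrays at 24 h was above background, and was at least 9.60-fold lower in the control line. Among condensin regulators, the mitotic kinase gene Plk1 changed by -4.73 ± 0.06 and -4.34 ± 0.06. The chromokinesin gene Kif4 changed by -5.35 ± 0.15 in the knockdown line, with 1 of 2 arrays above background at 24 h, and was at least 30.8-fold lower in the control line.

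Ctcf, whose protein halts cohesin at loop anchors, changed by -1.67 ± 0.06 in the knockdown line and -1.56 ± 0.06 in the control line, beside -1.55 and -1.41 for Rad21. In the Smc5-Smc6 complex, another SMC complex, which acts in DNA repair, 3 of 6 genes fell by at least 2-fold in each line. Smc6 changed by -1.62 ± 0.06 and -1.39 ± 0.06, while Smc5 gave -0.32 ± 0.19 and -0.58 ± 0.19. The divergent SMC gene Smchd1, which acts on the inactive X chromosome, fell in both lines.

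**Figure D5:**
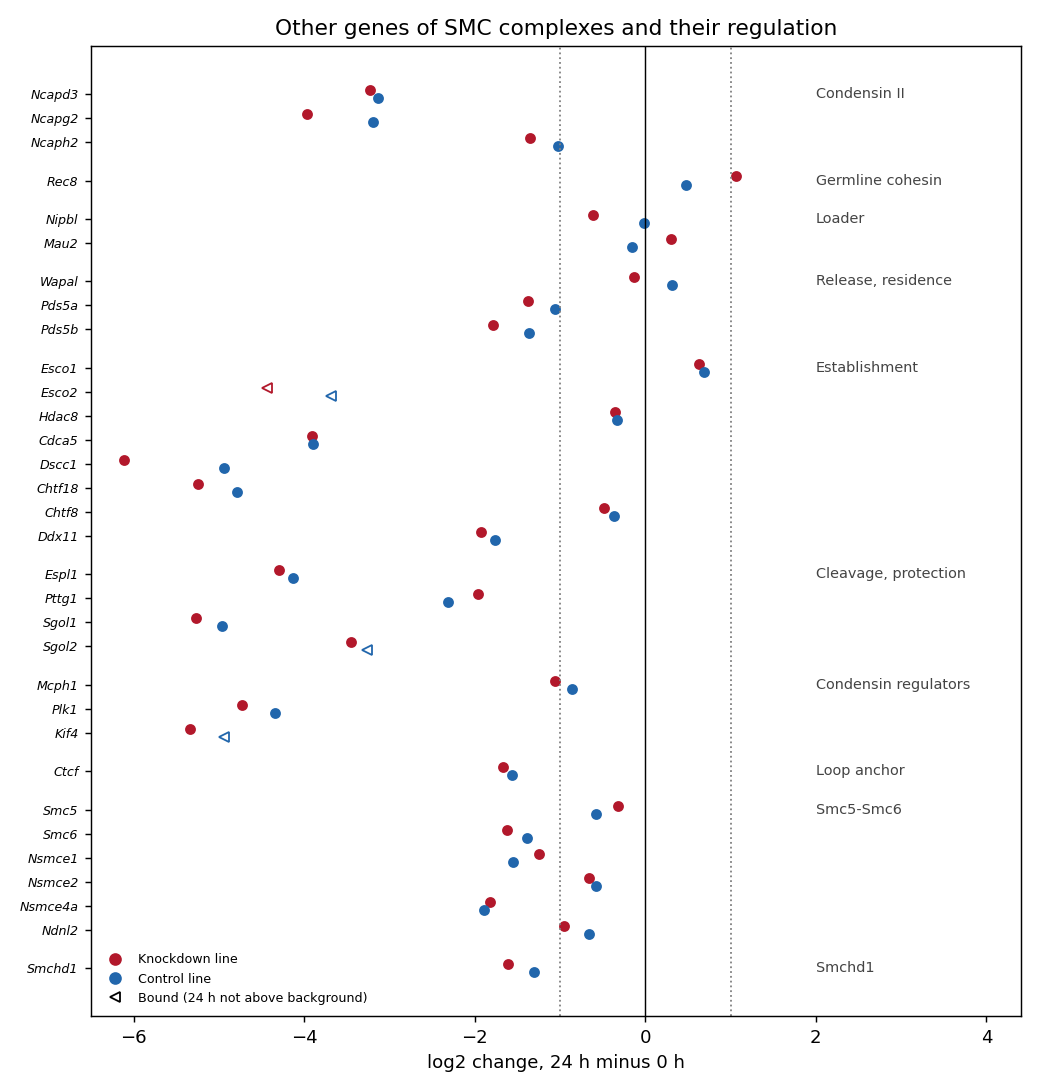
Log2 change on induction of the 32 other genes of condensin and cohesin biology by role, in the knockdown line and the control line, with open triangles where no 24 h array was well above background and the value is a bound. The cleavage and protection genes and most cohesion establishment genes lie below -1, while the loader genes Nipbl (-0.61 and -0.01) and Mau2 (0.31 and -0.16) lie between -1 and 1.

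Markers of dividing cells moved with the subunit genes. The 7 S phase markers summed to 13.7 to 14.05 in knockdown cells at 24 h and 271 to 274 in knockdown cells at 0 h, and to 16.3 to 16.5 in control cells at 24 h and 223 to 228 in control cells at 0 h. All 6 that were tested fell in both lines, and Ccne2 was above background on no array. The 7 G2 and M phase markers summed to 2.979 to 3.0005 in knockdown cells at 24 h and 85.9 to 87.3 in knockdown cells at 0 h, and to 3.78 to 3.79 in control cells at 24 h and 78.2 to 81.2 in control cells at 0 h, and all 7 fell in both lines. Every marker tested also fell further in knockdown cells, by a median difference of induction of -0.33 for S phase and -0.50 for G2 and M phase. Mki67 (-0.80 ± 0.10, adjusted p = 0.0113) and Pcna (-0.64 ± 0.10, adjusted p = 0.0162) passed that test. Top2a (-0.36 ± 0.13, adjusted p = 0.115) and Mcm2 (-0.06 ± 0.11, adjusted p = 0.773) did not. The part of these markers in the fall of the subunit genes, or in its difference between the lines, was not tested.

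Markers of T cells and fibroblasts were read on the same arrays. The 5 T cell markers summed to 3.66 to 5.40 in knockdown cells at 24 h, 1.90 to 2.64 in knockdown cells at 0 h, 3.32 to 4.57 in control cells at 24 h and 2.19 to 2.44 in control cells at 0 h, with Cd8a above background on no array. The 4 fibroblast markers summed to 0.160 to 0.209 in knockdown cells at 24 h, 0.0409 to 0.0423 in knockdown cells at 0 h, 0.265 to 0.342 in control cells at 24 h and 0.0470 to 0.0751 in control cells at 0 h. Of these, Col1a1 and Col3a1 were above background on no array, and Col1a2 did not pass the test (1.09 ± 0.69 and -0.29 ± 0.69). Pdgfrb was higher in both lines (adjusted p = 2.17e-05 and 1.23e-05), above background on all 24 h arrays and on no 0 h array. It thus entered the test only through its 24 h arrays, the time at which it was high.

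The genes most like each complex were found by the root mean square difference, over the 8 arrays, between a gene's centred log2 profile and the mean profile of the complex, among 13602 genes well above background on all arrays. For condensin they were Ect2 (0.0961), the transcript NAP111768-1 (0.109), Exoc4 (0.110), the replicative helicase gene Mcm2 (0.111) and Bok (0.115). Ect2 encodes the exchange factor that starts the cytokinetic ring, and it changed by -3.68 in the knockdown line and -3.52 in the control line. For cohesin they were Setd4 (0.0324), Nop14 (0.0341), Ints7 (0.0361), Rngtt (0.0390) and Fkbp3 (0.0393), of which Nop14 acts in ribosome biogenesis and Rngtt caps mRNA. The members' distances from their own mean ran from 0.177 (Ncapd2) to 0.574 (Smc4) in condensin and from 0.106 (Rad21) to 0.334 (Smc3) in cohesin. The genes named above were picked as the smallest of 13602 distances and the members were not, so the 2 kinds of distance cannot be compared. The condensin mean also includes Ncapg, whose probe was above background on 5 arrays.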

How the data were processed

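RNA of 8 samples was hybridised to 1-colour arrays, 2 per group. Per the file headers, the scanner software was Feature Extraction 10.7.3.1 (protocol GE1_107_Sep09) and the array design 026655 (mm9). The deposited intensity used is the processed signal, background-subtracted and detrended by the scanner software with no scaling between arrays, per the file headers. The mark for a signal well above background is, per the file headers, a 0 or 1 value of another kind. The deposited value table holds log2 values, for which the submitters' processing notes name limma without a version. It was matched by normexp (offset 50) and quantile normalization of the mean signal, with a column median of 6.84.

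From these files, each array's processed signal was divided by its own 75th percentile over non-control spots and taken to log2, with outlier spots left out (155 to 219 of 43020 per array) and no spot saturated. Repeated spots were averaged. Probes entered where both arrays of some group were marked well above background, and each gene was read from its entering probe of highest mean, giving 20306 probes and 16153 genes. Names came from the reference annotation by accession (11620 genes), symbol (580) or synonym (89), and 3864 kept the name in the file. One model with 4 group means was fitted with limma 3.58.1 (lmFit, eBayes) in R 4.3.3 (with data.table, version 1.17.8), with 4 residual and 1.51 prior degrees of freedom, and p-values were adjusted by Benjamini-Hochberg over all 16153 genes in 5 comparisons. Tests were 2-sided, ± values are standard errors of the fit, and each group has 2 technical duplicate arrays of one line, which is 1 biological sample. The number of arrays limits the precision. The fit was tested on simulated data.

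The replicate number is the slide, per the file headers, and each slide holds 1 array of every group. Deviations of same-numbered arrays from their group means correlated with r from 0.298 to 0.412 in all 6 pairs of groups, so the numbers were taken to pair the arrays. The main fit holds no slide term and does not use this pairing, which enters in the alternative fit with the slide as a block.

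The alternatives were median scaling, quantile normalization, normexp background, the deposited table, no filter and a stricter filter, the mean over probes, a variance trend, the slide as a block or one slide at a time, no fold rule, and each array left out in turn. The text names all 10 members, Tet2, and up to 8 other genes of the pathway with the largest change past the threshold. Further genes of that list are named as examples of their role and were chosen after their values were seen. The members and all lists were chosen with earlier results of these data known. One marker list is not reported here.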

Additional observations from a re-analysis of the deposited data

Results flagged for a closer look

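The change on induction differed between the lines by the test of the difference itself for 2 subunit genes of condensin. For Smc2 the change in knockdown cells minus that in control cells was -0.63 on the log2 scale (SE 0.15, adjusted p = 0.0483), and for Ncapd2 it was -0.37 (SE 0.08, adjusted p = 0.0341). Both slides gave the same direction for both genes. Each passed in 5 of 17 alternative settings, and missed the test without any 1 of the 8 arrays, with median scaling, with normexp background, with the deposited table and with no filter. The share of all genes with an adjusted p under 0.05 for this difference was 16.3%. Markers of dividing cells also fell further in knockdown cells, with a median difference of -0.33 for S phase and -0.50 for G2 and M phase.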

How the results depend on the processing

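All 10 members kept the direction of their fall on induction in both lines, with an adjusted p under 0.05, in all 17 alternative settings with a test (16 for Ncapg, which the stricter filter removed). With no fold rule 10 members were lower in each induction, 2 were lower and 1 higher between the lines at 24 h, and 2 were lower in the difference of induction. Over the fits that left out 1 array, the number of members higher by at least 2-fold ranged from 0 to 1, both at 24 h and in the difference of induction, and the gene was Ncapg. Under median scaling the all-gene median shifted by -0.25 in the knockdown induction, by -0.11 in the control induction and by -0.14 in the difference of induction.

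With the slide as a replicate block, Smc2 at 24 h (adjusted p = 0.0158), Stag1 at 0 h (0.0459) and the differences of induction of Smc4 (0.0353) and Smc3 (0.0427) passed the test, and the block changed no other call of a member. An intensity trend in the variance also made these 4 pass (0.0291 to 0.0457), the stricter filter made Smc2 (0.0378) and Smc4 (0.0411) pass, quantile normalization Smc2 (0.0356) and the deposited table Smc4 (0.0494).

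Directions that turned belonged to values that did not pass the test in the main setting. Median scaling turned Ncaph (0.0464), Smc1a (0.0702) and Stag2 (0.0517) at 0 h and Tet2 at 24 h (-0.0618) and in the difference of induction (-0.0299). Rad21 at 0 h turned with normexp background (-0.0546) and with the deposited table (-0.0502), which also turned Ncapg in the difference of induction (-0.0857). With 1 array left out, values at 0 h ranged from -0.0826 to 0.0226 for Ncaph, from -0.0977 to 0.0852 for Smc1a, from -0.0699 to 0.111 for Rad21 and from -0.0784 to 0.0290 for Stag2. At 24 h they ranged from -0.0561 to 0.0221 for Stag1 and from -0.0593 to 0.0702 for Tet2, and Ncapg in the difference of induction from -0.176 to 1.19. The cause was not tested.

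Counts over all genes moved further. The 2700 genes higher and 2494 lower in the knockdown induction became 2172 and 3386 with median scaling. In the difference of induction 381 were higher and 236 lower, against 102 and 110 with median scaling, 209 and 73 with normexp background and 95 and 26 with no filter. With the 2-fold rule kept, the number lower at 0 h was 225 (84 to 232 over the settings) and the number higher 54 (6 to 82), and at 24 h 161 (53 to 183) and 168 (88 to 183). With no fold rule they were 1221 and 956 at 0 h and 1042 and 1194 at 24 h.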
